A study of Mus musculus with 80 samples.

Results

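The genes described here are 8 homeostatic microglial core genes, *Tmem119*, *Siglech*, *Olfml3*, *Gpr34*, *Sparc*, *Fcrls*, *Slc2a5* and *Selplg*. They were taken by gene symbol from a list of genes that microglia of the undisturbed brain express, with no threshold on a measured value. All 8 were found among the 15919 genes of the sort comparison and among the 16000 genes of the cell preparation comparison. In each comparison 8 of 8 passed the filter on low counts, which kept 15825 and 15894 genes.

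Microglia are the resident macrophages of the brain. In the undisturbed adult brain they hold a homeostatic programme that depends on signals from the tissue, such as TGF-beta, and on transcription factors such as PU.1, and genes of this programme are widely used to tell microglia from other macrophages. Parts of the programme are known to be lost when microglia are cultured or respond to injury.

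The study sequenced RNA from mouse brain to ask how taking microglia out of the tissue changes their RNA. All mice carried Cx3cr1(Jung)-cre/Ert2+;NuTRAP+, and at about 3 months of age they received tamoxifen at 100 mg/kg by daily intraperitoneal injection. Cre recombination then puts a GFP tag on the ribosomes of cells with an active *Cx3cr1* promoter, which besides microglia is active in border macrophages and monocytes. The brains were taken only after a wait following tamoxifen, to allow for turnover of tagged cells in the blood. TRAP is the RNA pulled down with the tagged ribosomes, and Input is the RNA of the same homogenate before the pull-down.

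The sort comparison holds 48 libraries, an Input and a TRAP library for each mouse and preparation. Its groups are Tissue (brain homogenized at once, 4 mice), Cell (a suspension made with enzymes and not sorted, 4 mice), and cells from 4 sorts of such suspensions. The sorts are autoMACS (magnetic beads, 4 mice), autoMACS to Tyto (magnetic beads and then a cartridge cell sorter, 3 mice), Tyto (cartridge sorter, 5 mice) and FACSAria (cytometer, 4 mice). The cell preparation comparison holds 32 libraries from 4 mice a group, and its groups are Tissue, Cell (-) Inhib (the enzymatic suspension), Cell (+) Inhib (the same with inhibitors of transcription and translation) and Dounce (a suspension made by mechanical force in the cold).

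Both Tissue and Cell of the sort comparison, and Tissue of the cell preparation comparison, came from mice 946, 947, 948 and 949. Mice 156, 157, 1361 and 1362 gave both enzymatic suspensions of the cell preparation comparison, and mice 179, 180, 181 and 182 gave the Dounce libraries. Each of these 2 comparisons has Tissue libraries of its own, and the labels do not say whether they were made from the same RNA. The 16 pairs of sorted libraries came from 10 mice. Mice 66, 67 and 73 gave both autoMACS and autoMACS to Tyto, and mice 69, 945 and 991 both Tyto and FACSAria. Libraries held 7129451 to 20168163 counts in the sort comparison and 2471428 to 14650332 in the cell preparation comparison, with the lowest depths in Dounce-TRAP, 2471428 to 4724563 counts.

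Levels are given in CPM, counts scaled by the total of their library, after TMM scaling, which sets libraries on a common scale by the genes that differ least. A difference between groups is given as a log2 fold change with its standard error (SE), and a gene was called where the edgeR quasi-likelihood test gave a Benjamini-Hochberg adjusted p under 0.1 over all genes and the fold change was above 2. A gene called higher is said to have risen, and a gene called lower to have fallen. Some counts at an unadjusted p under 0.05 are also given. The shares of all genes beside them are of called genes and not of genes at that p, so they are no background for those counts. Bulk libraries cannot tell fewer cells of a type from less RNA per cell, so each comparison of preparations is also given relative to the microglial markers, with libraries scaled by 106 other marker genes of microglia.

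Of the cell surface genes, *Gpr34*, which encodes a receptor for lysophosphatidylserine, had the largest difference between tissue and cells. In Tissue-Input its levels were 2.15, 6.25, 3.38 and 3.05 CPM in mice 946 to 949, from 44, 134, 73 and 70 counts, and in Cell-Input they were 129, 176, 202 and 175 CPM. In Tissue-TRAP its levels were 80.2, 52.3, 99.1 and 88.4 CPM, and in Cell-TRAP 1030, 1020, 1350 and 1180 CPM. Every Cell library was above every Tissue library of the same fraction, and Tissue-TRAP also lay below Cell-Input without overlap. *Gpr34* rose by 5.52 ± 0.20 on the log2 scale (SE, n = 4 and 4), 45.9-fold, from Tissue-Input to Cell-Input (adjusted p = 2.1e-26), and by 3.84 ± 0.17, 14.3-fold, from Tissue-TRAP to Cell-TRAP (adjusted p = 5.2e-23). The gene lies on the plus strand of the X chromosome and overlaps *Cask* on the opposite strand, and the authors made strand-specific libraries. Whether reads of *Cask* were counted for it was not tested.

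*Sparc*, which encodes a secreted matricellular protein that endothelial cells and astrocytes also make, was the most abundant of the 8 in tissue. Its levels were 646, 730, 609 and 507 CPM in Tissue-Input and 1350, 1760, 1710 and 1980 CPM in Cell-Input. They were 1920, 1820, 1970 and 1790 CPM in Tissue-TRAP and 4760, 4870, 4900 and 5310 CPM in Cell-TRAP. Cell libraries again lay above Tissue libraries of the same fraction, but by less than for the other genes. *Sparc* rose by 1.45 ± 0.10, 2.73-fold, in Input (adjusted p = 3.8e-17) and by 1.40 ± 0.10 in TRAP (adjusted p = 5.5e-17).

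*Tmem119*, a transmembrane protein used as a marker of microglia, had levels of 21, 34.3, 20.3 and 24.3 CPM in Tissue-Input and 392, 578, 555 and 526 CPM in Cell-Input. In TRAP its levels were 570, 561, 653 and 576 CPM in Tissue and 3130, 3770, 3800 and 3780 CPM in Cell. The groups did not overlap in either fraction, and the lowest Cell-TRAP library, mouse 946, stood apart from the other 3. *Tmem119* rose by 4.36 ± 0.15 in Input and by 2.62 ± 0.14 in TRAP.

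The remaining 5 were alike in these comparisons. They were *Siglech*, a sialic acid-binding lectin, *Fcrls*, a scavenger receptor of the Fc receptor-like family, *Selplg*, the selectin ligand PSGL-1, *Slc2a5*, the fructose transporter GLUT5, and *Olfml3*, a secreted glycoprotein. From Tissue-Input to Cell-Input they rose by 3.97 to 4.41, and from Tissue-TRAP to Cell-TRAP by 2.11 to 2.56. In all, 8 of 8 rose in Input, where 26.7% of all genes were called higher, and 8 of 8 rose in TRAP, where 23.8% were. The median of the 8 was 4.05 in Input and 2.40 in TRAP, beside 0.07 and -0.05 over all genes and 3.85 and 2.50 over the 106 other markers. Among all genes called in TRAP 44.6% were higher with TMM scaling and 33.8% with DESeq2 size factors, which moved the median of all genes by -0.33, and 8 of 8 were called higher in each. With at least 10 counts asked of every library *Sparc* in TRAP was at 0.98 and not called.

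**Figure D1:**
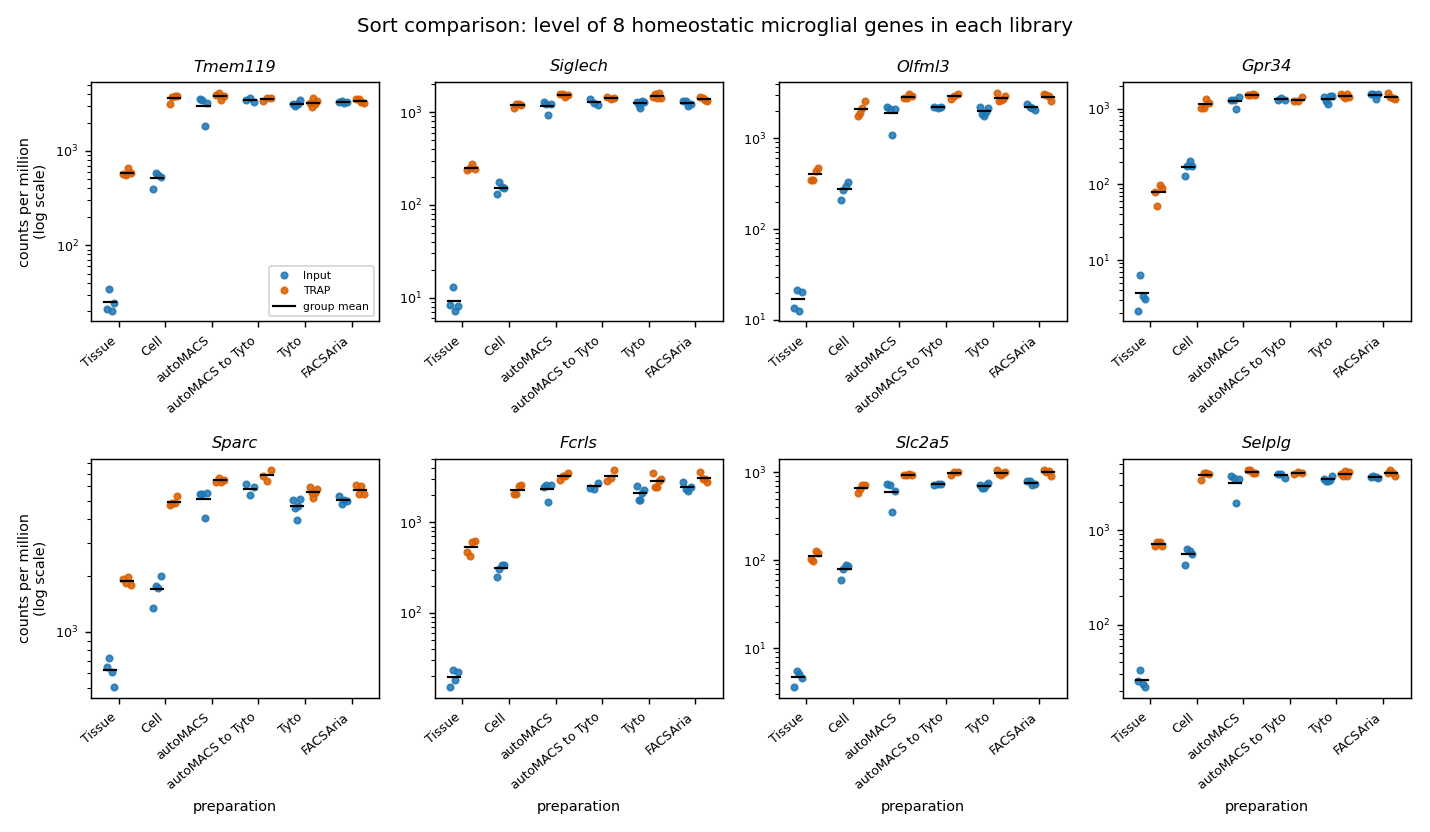
Level of each of the 8 genes in every library of the sort comparison, in CPM on a log axis, by preparation, with Input and TRAP in separate colours and a bar at each group mean. Tissue-Input is the lowest group for each gene, from 2.15 to 6.25 CPM for *Gpr34* and from 507 to 730 CPM for *Sparc*, and the sorted groups lie close together.

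Another 24 homeostatic microglial genes moved with the 8. This list shares genes with the 106 other markers, such as *P2ry12* and *Csf1r*, so the medians of these lists are not separate. From Tissue-Input to Cell-Input 23 of 24 rose, with a median of 3.67, and from Tissue-TRAP to Cell-TRAP 22 of 24 rose, with a median of 2.56. The largest changes in Input were those of *P2ry12*, the ADP receptor that guides microglial processes, at 5.40, of *P2ry13* at 4.98 and of *Cd33* at 4.96. The smallest were those of *Gpr56* at 2.45, *Cst3* at 1.60 and *Gas6* at 0.72, the last of which was not called.

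Other cell types' markers moved between the same groups. The summed level of 10 of 10 endothelial markers was 118 CPM in Tissue-Input and 2540 CPM in Cell-Input, with *Slc2a1* the most abundant at 50.6 and 896 CPM. The sum of 9 of 9 astrocyte markers was 3220 and 7960 CPM (*Slc1a2* 1220 and 2760 CPM), that of 8 of 8 oligodendrocyte markers 3410 and 11300 CPM (*Mbp* 1510 CPM in Tissue-Input), and that of 8 of 8 neuron markers 5480 and 650 CPM (*Snap25* 2050 and 254 CPM). Suspensions thus had larger shares of endothelial, astrocyte, oligodendrocyte and microglial marker RNA than tissue, and a smaller share of neuron marker RNA. These sums are shares of a library and not amounts of RNA.

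In TRAP the endothelial sum was 273 CPM in Tissue and 1610 CPM in Cell, the astrocyte sum 4460 and 1830 CPM, the oligodendrocyte sum 828 and 545 CPM, and the neuron sum 5490 and 185 CPM. The 6 of 6 markers of border macrophages, which the *Cx3cr1* promoter can also tag, summed to 9.07 and 166 CPM in Input and to 168 and 1250 CPM in TRAP, with *Mrc1* the most abundant at 3.45, 73.1, 50.5 and 539 CPM. The 106 other microglial markers summed to 1260 and 15100 CPM in Input and to 19300 and 97500 CPM in TRAP. No marker of these lists was at 0 in these 4 groups, and the part of any of these cell types in the levels of the 8 genes was not tested.

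Of the lists with genes missing from the table, 6 of 7 pericyte and smooth muscle markers summed to 108 CPM in Tissue-Input, 402 CPM in Cell-Input, 83.6 CPM in Tissue-TRAP and 119 CPM in Cell-TRAP (*Vtn* 75.2, 200, 52 and 44.2 CPM). For 6 of 8 blood leukocyte markers the sums were 1.76, 30.8, 3.81 and 16.5 CPM (*Ly6c2* 0.687, 12.2, 3.11 and 9.46 CPM), with *S100a8* at 0 in Tissue-TRAP. For 3 of 5 red blood cell markers they were 126, 2640, 24.3 and 58 CPM (*Hba-a1* 106, 2050, 21 and 50.7 CPM). Of these 4 groups Cell-Input was thus the highest for both lists, while in the sorts the mean leukocyte sum was higher still in autoMACS-Input at 142 CPM. In autoMACS to Tyto-Input (33.3 to 138 CPM) and Tyto-Input (29.9 to 79.4 CPM) it overlapped Cell-Input (22.6 to 37.4 CPM).

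Relative to the microglial markers, 2 of the 8 genes departed from the rest. *Gpr34* made up 0.182%, 0.413%, 0.293% and 0.26% of the summed level of the other markers in Tissue-Input and 0.997%, 1.06%, 1.28% and 1.17% in Cell-Input. In TRAP its shares were 0.425%, 0.294%, 0.464% and 0.463% in Tissue and 1.1%, 1.07%, 1.35% and 1.18% in Cell. No Tissue library of either fraction reached the lowest Cell library. Under this scaling *Gpr34* rose by 1.68 ± 0.13 in Input (adjusted p = 1.6e-15), where it was the 1 of 8 called higher and 0.739% of all genes were, and by 1.36 ± 0.12 in TRAP (adjusted p = 7.4e-14), again 1 of 8, against 0.853%.

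*Sparc* went the other way. Its level was 54.8%, 48.2%, 52.7% and 43.2% of the summed other markers in Tissue-Input and 10.4%, 10.6%, 10.8% and 13.2% in Cell-Input. In TRAP it was 10.2%, 10.2%, 9.23% and 9.38% in Tissue and 5.05%, 5.13%, 4.88% and 5.29% in Cell. Tissue-Input was far above every other group, and Tissue-TRAP was close to Cell-Input. *Sparc* fell relative to the markers by 2.44 ± 0.09 in Input (adjusted p = 8.4e-27), the 1 of 8 called lower, and by 1.09 ± 0.09 in TRAP (adjusted p = 3.7e-15), again 1 of 8. Since 92% of all genes were called lower under this scaling in Input and 83% in TRAP, a fall relative to the markers is shared by most genes tested. With libraries scaled by the summed counts of the markers, *Sparc* in TRAP was at -0.94 and not called.

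The other 6 stayed within 2-fold of the markers, at 0.10 to 0.54 in Input and at -0.38 to 0.13 in TRAP. *Selplg* at 0.54 and *Tmem119* at 0.50 were the highest of them in Input, and *Fcrls* at -0.38 the lowest in TRAP. *P2ry12* rose relative to the markers by 1.55 in Input and by 1.32 in TRAP, *P2ry13* by 1.11 and 1.05, and *Cd33* by 1.12 in Input, while *Gas6*, *Cst3* and *Gpr56* fell by 3.16, 2.29 and 1.45 in Input.

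**Figure D2:**
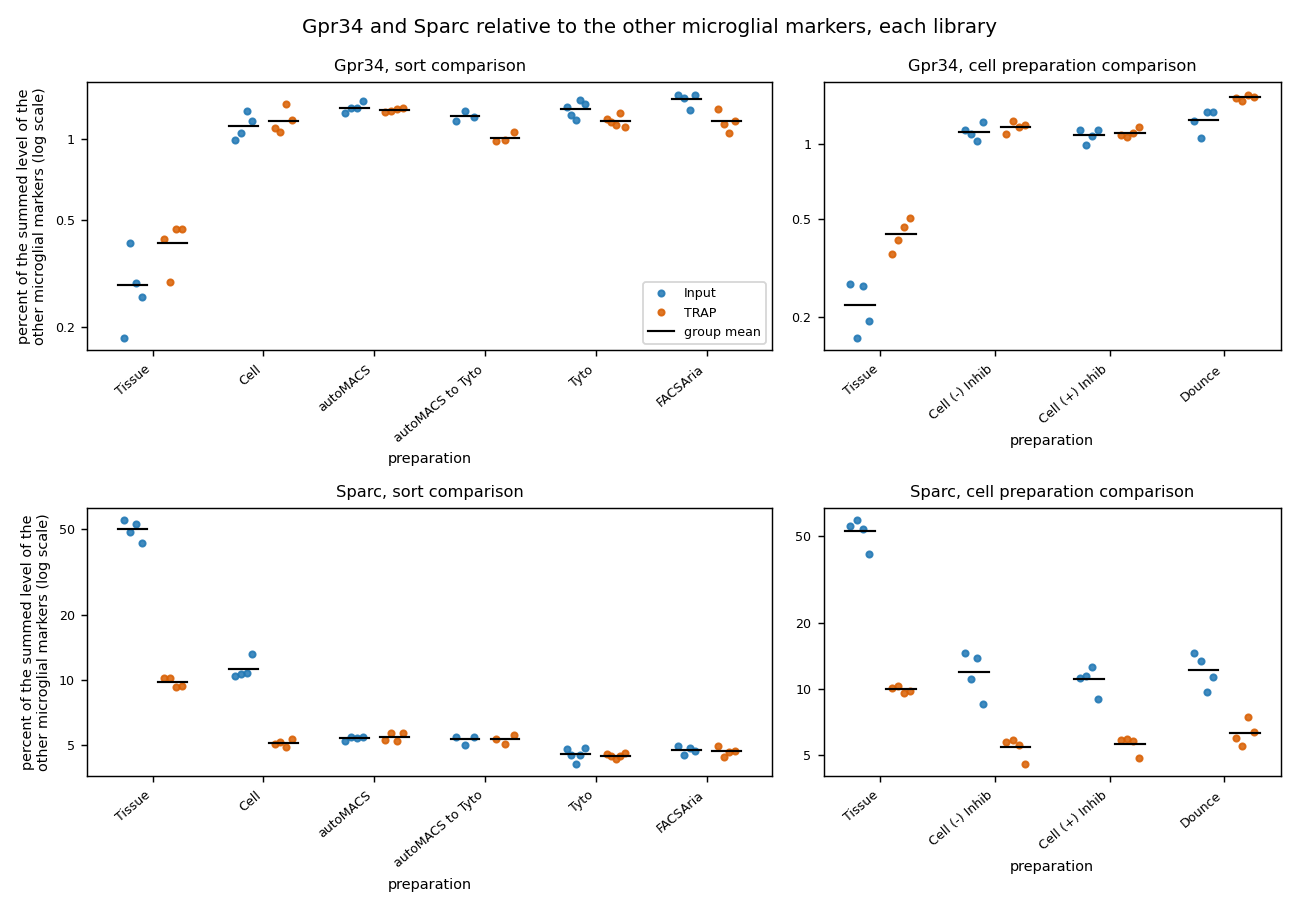
Level of *Gpr34* and *Sparc* in every library as a percent of the summed level of the 106 other microglial markers, on a log axis, by preparation, with Input and TRAP in separate colours and a bar at each group mean. *Gpr34* lies at 0.182% to 0.413% in Tissue-Input and at 0.983% or above in all Cell and sorted libraries of the sort comparison, and *Sparc* lies at 43.2% to 54.8% in Tissue-Input and at 13.2% or below in all of those.

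The sorts ask what is gained by isolating microglia from the suspension. *Gpr34* reached 1320, 1320, 988 and 1420 CPM in autoMACS-Input, 1320, 1370 and 1320 CPM in autoMACS to Tyto-Input, 1410, 1250, 1150, 1470 and 1450 CPM in Tyto-Input, and 1570, 1540, 1360 and 1570 CPM in FACSAria-Input. *Sparc* reached 5490, 5480, 4070 and 5520 CPM in autoMACS-Input, 6160, 5380 and 5960 CPM in autoMACS to Tyto-Input, 5080, 4570, 3980, 4690 and 5130 CPM in Tyto-Input, and 5310, 4820, 5090 and 5030 CPM in FACSAria-Input. Every sorted Input library lay above every Cell-Input library for both genes, and the 4 sorts overlapped for *Gpr34*.

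Against Cell-Input, the mean of the 4 sorts was higher by 3.00 ± 0.15 for *Gpr34* and by 1.60 ± 0.08 for *Sparc*. The other 6 rose by 2.66 (*Tmem119*) to 3.14 (*Slc2a5*), so that 8 of 8 rose, where 22.8% of all genes were called higher. The median of the 8 was 2.90, beside 2.85 for the 106 other markers, 2.73 for the 24 other homeostatic genes, of which 23 rose, and 0.14 for all genes. *Cx3cr1*, the fractalkine receptor gene that drives the Cre, rose by 3.10. Among all genes called here 41.1% were higher with TMM scaling and 25.7% with DESeq2 size factors, which moved the median of all genes by -0.49, and 8 of 8 were called higher with both.

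*Sparc* fell relative to the markers by 1.23 ± 0.06 from Cell-Input to the sorts (adjusted p = 6.7e-22), the 1 of 8 called lower, where 90.3% of all genes were. The other 7 were at -0.18 to 0.30. *Sparc* was 4.08% to 5.46% of the summed markers in the sorted Input libraries, below the 10.4% of the lowest Cell-Input library. In the sorted Input groups the endothelial sum was 136 to 262 CPM, the astrocyte sum 208 to 314 CPM, the oligodendrocyte sum 215 to 493 CPM and the neuron sum 14 to 29.2 CPM, each below its Cell-Input sum, while border macrophage markers summed to 583 to 1030 CPM. Whether RNA of these cells makes up the difference in *Sparc* was not tested.

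In TRAP the 8 genes in the sorts were close to the unsorted suspension, while endothelial, astrocyte, oligodendrocyte and neuron marker sums were lower. The endothelial sum was 1610 CPM in Cell-TRAP and 170 to 221 CPM in the sorts, as group means. The astrocyte sum was 1830 and 157 to 174 CPM, and the oligodendrocyte sum 545 and 220 to 230 CPM. The neuron sum was 185 and 5.2 to 6.85 CPM, and the border macrophage sum 1250 and 853 to 1660 CPM. The mean of the 4 sorts differed from Cell-TRAP by -0.05 (*Tmem119*) to 0.56 (*Slc2a5*), and edgeR called 0 of 8, where 25.1% of all genes were called in either direction. Of those called genes only 3.37% were higher in the sorts. DESeq2 also called 0, and 6 of 8 had an unadjusted p under 0.05. Relative to the markers, edgeR called 0 of 8, against 27.2% of all genes, of which 0.999% were higher in the sorts. Here 3 of 8 had an unadjusted p under 0.05, and *Tmem119* was at -0.38 and *Selplg* at -0.26. For *Sparc* the value was -0.02 ± 0.07, and for *Gpr34* it was -0.0012 ± 0.09.

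The 4 sorts were then compared with each other. In Input the largest difference between any pair of sorts was 0.14 (*Siglech*) to 0.34 (*Slc2a5*), and edgeR called 0 of 8 across the sorts, where 10.5% of all genes were called, with 1 of 8 at an unadjusted p under 0.05. Without 1 library at a time the difference of *Siglech* ranged from 0.04 to 0.18 and that of *Slc2a5* from 0.15 to 0.44. In TRAP it was 0.06 (*Olfml3*) to 0.29 (*Sparc*), and edgeR called 0 of 8, against 3.3% of all genes, with 1 at an unadjusted p under 0.05. In both fractions that gene was *Sparc*, at 0.31 in Input (adjusted p = 0.086) and 0.29 in TRAP (adjusted p = 0.072), with its lowest group means in Tyto and its highest in autoMACS to Tyto. Relative to the markers edgeR called 0 of 8 in Input, against 10.6% of all genes, and 0 of 8 in TRAP, against 2.5%, with 1 and 3 of 8 at an unadjusted p under 0.05. DESeq2's Wald test has no form for these comparisons of 4 groups at once.

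The autoMACS-Input library of mouse 72 was the lowest of the 4 mice for 8 of 8 genes. Its levels were 1830 CPM for *Tmem119*, beside 3220 to 3570 CPM, 1090 CPM for *Olfml3*, beside 2080 to 2220 CPM, and 1940 CPM for *Selplg*, beside 3450 to 3770 CPM. It held 7129451 counts, the fewest of the sort comparison. No call on the 8 genes changed without it.

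In order of level, Tissue-Input was lowest for 8 of 8 genes in the sort comparison and did not overlap the next group. The order was worked out for the 8 genes only, while 26.7% of all genes were called higher in Cell-Input than in Tissue-Input. For *Gpr34* the order went on with Tissue-TRAP (mean 80.02 CPM) and Cell-Input (171 CPM), neither overlapping its neighbour. For *Sparc* and *Tmem119* it went on with Cell-Input (1699 and 513 CPM) and Tissue-TRAP (1875 and 590 CPM), which overlapped each other and not the groups above. The remaining 9 groups, Cell-TRAP and the sorts in both fractions, spanned 1147 to 1528 CPM for *Gpr34*, 3028 to 3811 CPM for *Tmem119* and 4691 to 6860 CPM for *Sparc*. Each of these overlapped its neighbour in the order, except that autoMACS to Tyto-Input and autoMACS-TRAP did not overlap for *Sparc*.

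Levels of different genes were compared per kilobase of exon. In Tissue-Input *Sparc* was highest at 185 CPM per kilobase, followed by *Tmem119* at 11.6 and *Fcrls* at 9.88, and *Gpr34* at 1.95 and *Slc2a5* at 1.41 were lowest. In FACSAria-Input *Tmem119* stood at 1540, *Sparc* at 1500, *Fcrls* at 1230, *Gpr34* at 796 and *Slc2a5* at 227 CPM per kilobase. Thus *Sparc* stood far above the rest in Tissue-Input and near *Tmem119* in FACSAria-Input, and *Gpr34* stood below *Siglech* (2.81) in the first and above it (381) in the second. The other sorts varied, with *Sparc* at 2040 and *Tmem119* at 1650 in autoMACS to Tyto-TRAP and at 1390 and 1480 in Tyto-Input.

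The pull-down asks how far TRAP enriches microglial RNA over the homogenate. In tissue 7 of the 8 genes rose by 4.43 (*Gpr34*) to 4.78 (*Selplg*) from Input to TRAP, and *Sparc* rose by 1.59 ± 0.10. With 8 of 8 called higher, against 9.2% of all genes, their median was 4.57, beside 4.24 for the 106 other markers, 4.33 for the 24 other homeostatic genes and 0.03 for all genes. Earlier ribosome tagging went into the choice of the markers, so their rise here is not separate support. Among all genes called in tissue 83.3% were higher, and 73% with the mouse as a block, with 8 of 8 called higher in both. In Cell 8 of 8 also rose, against 16.7% of all genes, by 2.75 (*Gpr34*) to 3.07 (*Slc2a5*) for 7 genes and by 1.55 ± 0.10 for *Sparc*. Of all genes called between Cell-TRAP and Cell-Input 35.2% were higher with TMM scaling and 21% with DESeq2 size factors, which moved the median of all genes from -0.07 to -0.48, and 8 of 8 were called higher with both.

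Sorted cells showed little further enrichment by the pull-down. In autoMACS the differences of TRAP from Input were 0.28 (*Gpr34*) to 0.64 (*Slc2a5*), and edgeR called 0 of 8, against 17.4% of all genes, with 7 of 8 at an unadjusted p under 0.05. In autoMACS to Tyto they were -0.03 to 0.44, and edgeR called 0 of 8, against 5.35%, with 4 of 8 at that p. In Tyto they were 0.04 to 0.50, and edgeR called 0 of 8, against 16.9%, with 5 at that p, and in FACSAria they were -0.07 to 0.41, with 0 of 8 called, against 10.2%, and 3 at that p. These shares are of called genes in both directions, and not of genes at that p. Of the called genes only 0.399%, 2.84%, 0.524% and 0.925% were higher in TRAP, in the same order. With the mouse as a block, which keeps fewer genes, edgeR called 877 genes in place of 2755 in autoMACS, 1260 in place of 2674 in Tyto and 750 in place of 1622 in FACSAria, and 0 of 8 in each sort. DESeq2 called 0 of 8 in each of the 4 sorts. *Slc2a5* had the largest difference in 3 of them, and *Olfml3* in Tyto at 0.50, next to *Slc2a5* at 0.49.

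Whether the pull-down enriched the genes by different amounts in Cell and in Tissue was tested as an interaction, TRAP over Input in Cell minus the same in Tissue. It was called lower for 7 of the 8, at -1.50 (*Slc2a5*) to -1.99 (*Selplg*), where 29.4% of all genes were called lower. For *Sparc* it was -0.04 ± 0.14 (adjusted p = 0.80). The median of the 106 other markers was -1.47, and 84 of them were called lower, beside a median of -0.29 for all genes. Of all genes called in the interaction 16.3% were higher with TMM scaling and 5.23% with DESeq2 size factors.

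The cell preparation comparison repeats the enzymatic suspension in other mice and adds a cold mechanical one. *Gpr34* stood at 4.21, 2.58, 3.92 and 2.84 CPM in Tissue-Input (45, 23, 40 and 27 counts), at 253, 315, 192 and 308 CPM in Cell (-) Inhib-Input and at 82.3, 63.5, 65.3 and 90.8 CPM in Dounce-Input. In TRAP it stood at 88.2, 94.5, 125 and 123 CPM in Tissue, at 1170, 1500, 1360 and 1320 CPM in Cell (-) Inhib and at 1480, 1380, 1280 and 1490 CPM in Dounce. Both suspensions were above tissue in each fraction without overlap, and they overlapped each other in TRAP only. *Gpr34* rose over Tissue by 6.28 ± 0.20, 77.9-fold, in Cell (-) Inhib-Input (adjusted p = 3.4e-22), by 4.46 ± 0.19, 22-fold, in Dounce-Input (adjusted p = 4e-19), by 3.63 ± 0.17 in Cell (-) Inhib-TRAP and by 3.71 ± 0.17 in Dounce-TRAP.

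*Sparc* stood at 866, 928, 790 and 613 CPM in Tissue-Input, at 3230, 3170, 2600 and 2140 CPM in Cell (-) Inhib-Input and at 969, 802, 469 and 764 CPM in Dounce-Input. In TRAP it stood at 2470, 2380, 2620 and 2410 CPM in Tissue, at 6140, 7080, 6470 and 5020 CPM in Cell (-) Inhib and at 5810, 5060, 6030 and 6090 CPM in Dounce. Dounce-Input overlapped Tissue-Input, and in every other pairing with Tissue the suspension was higher. *Sparc* rose by 1.80 ± 0.16 in Cell (-) Inhib-Input, by 1.32 ± 0.16 in Cell (-) Inhib-TRAP and by 1.22 ± 0.16 in Dounce-TRAP, and its difference was -0.09 ± 0.15 in Dounce-Input (adjusted p = 0.61).

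For the enzymatic suspension 8 of 8 rose over Tissue in Input, against 28.3% of all genes, and 8 of 8 in TRAP, against 20.4%. The 6 genes other than *Sparc* and *Gpr34* rose by 4.44 to 4.73 in Input and by 2.10 to 2.49 in TRAP. For the Dounce suspension 7 of 8 rose in Input, against 24.8%, and 8 of 8 in TRAP, against 22.8%, with those 6 at 2.12 to 2.68 in Input and at 1.64 to 2.44 in TRAP. Of the 24 other homeostatic genes 24 and 21 rose in the enzymatic suspension, in Input and in TRAP, and 20 and 18 in the Dounce suspension. Of all genes called between Dounce-Input and Tissue-Input 49% were higher, and 59.9% with at least 10 counts asked of every library, which moved the median of all genes from -0.10 to 0.15, and 7 of 8 were called higher with both.

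**Figure D3:**
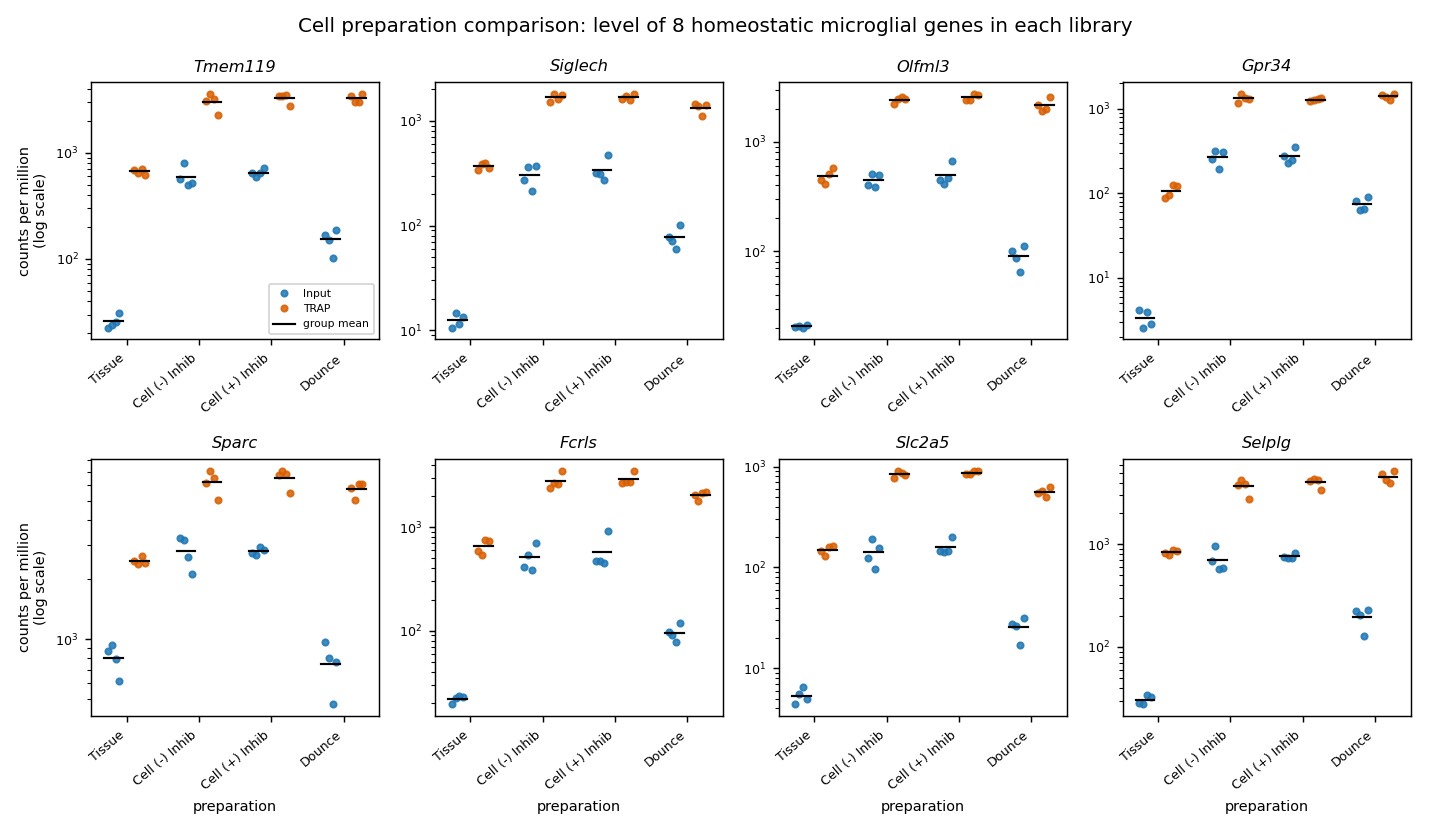
Level of each of the 8 genes in every library of the cell preparation comparison, in CPM on a log axis, by preparation, with Input and TRAP in separate colours and a bar at each group mean. The Cell (-) Inhib and Cell (+) Inhib groups lie together for each gene, and in Dounce-Input *Sparc* lies at 469 to 969 CPM, overlapping the 613 to 928 CPM of Tissue-Input.

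Here too *Gpr34* and *Sparc* departed from the others relative to the markers. The Tissue libraries came from the same mice as in the sort comparison, so these comparisons with Tissue are not independent of those above. *Gpr34* made up 0.272%, 0.165%, 0.268% and 0.193% of the summed markers in Tissue-Input, 1.14%, 1.1%, 1.03% and 1.23% in Cell (-) Inhib-Input and 1.24%, 1.06%, 1.35% and 1.35% in Dounce-Input. In TRAP its shares were 0.362%, 0.411%, 0.463% and 0.503% in Tissue, 1.1%, 1.24%, 1.17% and 1.2% in Cell (-) Inhib and 1.54%, 1.5%, 1.59% and 1.56% in Dounce. Both suspensions were above tissue in each fraction, and Dounce-TRAP was the highest group without overlap.

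*Gpr34* was the 1 of 8 called higher relative to the markers in each of the 4 comparisons with Tissue. It rose by 2.00 ± 0.14 in Cell (-) Inhib-Input, against 0.579% of all genes, by 1.32 ± 0.12 in Cell (-) Inhib-TRAP, against 0.887%, by 2.07 ± 0.15 in Dounce-Input, against 2.81%, and by 1.88 ± 0.13 in Dounce-TRAP, against 2.5%. Among the 24 other homeostatic genes *P2ry12*, which is itself among the 106 markers of the scaling, also rose relative to them in these 4. It rose by 1.84, 1.39, 2.19 and 2.06.

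*Sparc* was 55.9%, 59.3%, 54% and 41.6% of the summed markers in Tissue-Input, 14.6%, 11.1%, 13.9% and 8.55% in Cell (-) Inhib-Input and 14.6%, 13.4%, 9.74% and 11.4% in Dounce-Input. It fell relative to the markers by 2.45 ± 0.18 in Cell (-) Inhib-Input, the 1 of 8 called lower, against 92.3% of all genes, and by 2.50 ± 0.18 in Dounce-Input, again 1 of 8, against 79.5%. In Cell (-) Inhib-TRAP its value was -0.99 ± 0.17 (adjusted p = 3e-06), just short of 2-fold, and in Dounce-TRAP -0.61 ± 0.17. Without any 1 of 10 libraries the Cell (-) Inhib-TRAP value passed 2-fold, at -1.0 to -1.03, and with a longer list of marker genes it was -1.12. The 10 were mice 947 and 949 of Tissue-Input, 948 and 949 of Tissue-TRAP, 1362 of Cell (-) Inhib-Input and of Cell (+) Inhib-Input, 179 of Dounce-Input, and 156, 157 and 1361 of Cell (-) Inhib-TRAP.

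The marker lists of other cells again moved with the preparation. Endothelial markers summed to 156 CPM in Tissue-Input, 3060 CPM in Cell (-) Inhib-Input and 81.5 CPM in Dounce-Input, with *Slc2a1* the most abundant at 69.1, 874 and 45.4 CPM. Astrocyte markers summed to 4300, 9460 and 2190 CPM (*Slc1a2* 1580, 3140 and 1120 CPM), oligodendrocyte markers to 4770, 18000 and 5750 CPM, neuron markers to 7380, 564 and 2980 CPM, and the 106 other microglial markers to 1510, 23600 and 6040 CPM. The Dounce suspension thus had smaller shares of endothelial and astrocyte marker RNA than tissue and a larger share of microglial marker RNA. The enzymatic suspension had larger shares of all 3. The part of these cells in the level of *Sparc* was not tested.

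In TRAP the endothelial sum was 367 CPM in Tissue, 1510 CPM in Cell (-) Inhib and 122 CPM in Dounce, the astrocyte sum 6070, 1750 and 2630 CPM, the oligodendrocyte sum 1110, 879 and 1810 CPM, and the neuron sum 7050, 117 and 1340 CPM. Pericyte and smooth muscle markers (6 of 7) summed to 145, 466 and 87.4 CPM in Input and to 111, 91.2 and 36.8 CPM in TRAP, and border macrophage markers to 12, 192 and 68.8 CPM in Input and to 207, 1110 and 1240 CPM in TRAP. Blood leukocyte markers (8 of 8) summed to 2.57, 44.5 and 365 CPM in Input (303, 138, 834 and 186 CPM in the Dounce libraries) and to 3.08, 14.2 and 30.1 CPM in TRAP, and red blood cell markers (3 of 5) to 179, 8160 and 10200 CPM in Input. By group means the share of blood marker RNA was thus highest in Dounce-Input. Its red blood cell sum (8850 to 11700 CPM) overlapped those of Cell (-) Inhib-Input (4970 to 12100 CPM) and Cell (+) Inhib-Input (5660 to 14600 CPM). *Cd3e* in Tissue-TRAP and Dounce-TRAP was at 0.

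**Figure D4:**
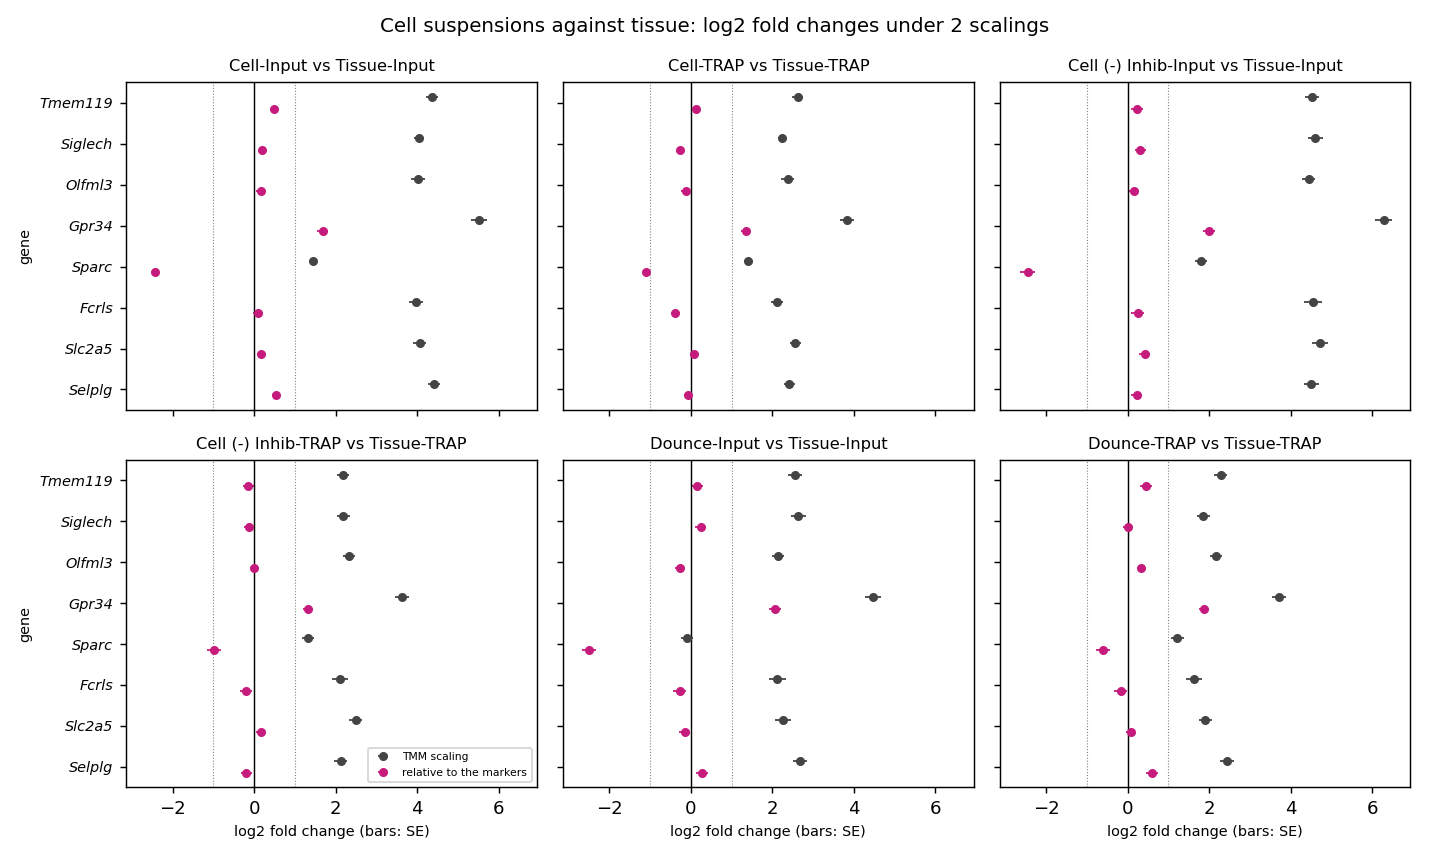
Log2 fold change over Tissue of each of the 8 genes, with its SE, in the unsorted suspensions of both comparisons, under TMM scaling and relative to the 106 other microglial markers, with dotted lines at a 2-fold change. On the scale of the markers *Gpr34* lies at 1.32 to 2.07 and *Sparc* at -2.50 to -0.61, and the other 6 genes lie between -0.38 and 0.60.

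Inhibitors of transcription and translation ask whether the genes change during the enzymatic step. The level of *Gpr34* was 275, 228, 247 and 356 CPM in Cell (+) Inhib-Input and 1240, 1260, 1300 and 1340 CPM in Cell (+) Inhib-TRAP, and that of *Sparc* was 2730, 2650, 2910 and 2820 CPM and 6700, 7020, 6840 and 5490 CPM. These overlapped the libraries of the same mice without inhibitors. The differences of the 8 genes, with minus without inhibitors, were -0.0045 to 0.18 in Input and -0.05 to 0.13 in TRAP. Without 1 library at a time they ranged in Input from -0.13 to 0.37 for *Fcrls*, from 0.02 to 0.35 for *Slc2a5* and from 0.05 to 0.30 for *Tmem119*. Of the 8 edgeR called 0 in Input, against 0.289% of all genes, and 0 in TRAP, against 0.793%, with 0 at an unadjusted p under 0.05 in each and 0 by DESeq2.

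Relative to the markers edgeR again called 0 of 8 in Input, against 0.302% of all genes, and 0 of 8 in TRAP, against 0.642%, with 0 at an unadjusted p under 0.05 in each. The interaction of inhibitors with the pull-down gave 0 of 8 by edgeR and by DESeq2, against 0.145% of all genes, with 0 at an unadjusted p under 0.05. Few genes of any kind were called in these comparisons, so a count of 0 of 8 lies at the background. Early response genes, such as *Fos*, *Jun* and *Egr1*, which are transcribed within minutes of a stimulus, did respond. With inhibitors 18 of 19 fell in Input, with a median of -3.58, and 19 of 19 fell in TRAP, with a median of -4.81, and their summed level was 28500 CPM in Cell (-) Inhib-TRAP and 802 CPM in Cell (+) Inhib-TRAP.

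The Dounce and enzymatic suspensions, which came from different mice, were then compared with each other. From Cell (-) Inhib-Input to Dounce-Input 8 of 8 fell, with log2 fold changes of -1.82 (*Gpr34*) to -2.47 (*Slc2a5*), where 35.6% of all genes were called lower. Relative to the markers edgeR called 0 of 8, against 66.3% of all genes, and of those called genes 90.8% were higher in Dounce-Input. At an unadjusted p under 0.05 were 3 of 8, all lower, namely *Slc2a5* at -0.58, *Fcrls* at -0.53 and *Olfml3* at -0.42. *Gpr34* at 0.07 ± 0.12 and *Sparc* at -0.05 ± 0.17 did not differ between the suspensions beyond their SE under this scaling. With TMM scaling 39.2% of all genes called between these groups were higher, and 52.7% with at least 10 counts asked of every library, which moved the median of all genes from -0.41 to -0.01, with 8 of 8 called lower with both.

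In TRAP the differences between the Dounce and enzymatic suspensions stayed within 2-fold for the 8 genes. They were -0.58 ± 0.16 (*Slc2a5*, adjusted p = 0.0021) to 0.32 ± 0.15 (*Selplg*, adjusted p = 0.08), and edgeR and DESeq2 each called 0 of 8, against 31% of all genes, with 4 of 8 at an unadjusted p under 0.05. Of all genes called by edgeR 72.8% were higher in Dounce-TRAP. *Slc2a5* stood at 548, 571, 502 and 631 CPM in Dounce-TRAP and at 775, 913, 858 and 820 CPM in Cell (-) Inhib-TRAP, and these did not overlap. *Siglech* (1120 to 1440 and 1520 to 1810 CPM) and *Fcrls* (1780 to 2200 and 2400 to 3540 CPM) did not overlap either. Without 1 library at a time the difference ranged from -0.88 to -0.54 for *Slc2a5*, from -0.83 to -0.33 for *Fcrls* and from 0.02 to 0.39 for *Selplg*. It ranged from -0.60 to -0.29 for *Siglech*, from -0.48 to -0.03 for *Sparc* and from -0.47 to -0.10 for *Olfml3*. For *Gpr34* (-0.23 to 0.14) and *Tmem119* (-0.21 to 0.19) the range included both signs. Relative to the markers edgeR called 0 of 8, against 34.9% of all genes, with 5 of 8 at an unadjusted p under 0.05, and the largest differences were those of *Selplg* at 0.80 ± 0.14 (adjusted p = 1.7e-05), *Tmem119* at 0.59 and *Gpr34* at 0.56. Of all genes called under this scaling 87.0% were higher in Dounce-TRAP. Of the 19 early response genes 19 were called lower in Dounce-TRAP.

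The pull-down enriched the 8 genes in each preparation of this comparison. From Input to TRAP 8 of 8 rose in Tissue, against 8.17% of all genes, in Cell (-) Inhib, against 10.6%, in Cell (+) Inhib, against 9.71%, and in Dounce, against 20.8%. Leaving *Sparc* aside, the rises were 4.55 to 4.97 in Tissue, 2.32 to 2.57 in Cell (-) Inhib, 2.22 to 2.45 in Cell (+) Inhib and 4.10 to 4.57 in Dounce. *Sparc* rose by 1.63, 1.15, 1.23 and 2.94 in the same order. Among all genes called 22.4% were higher in Cell (-) Inhib and 21.3% in Cell (+) Inhib, and with the mouse as a block, which filters the genes again over those libraries, 38% and 33.8%, moving the median of all genes by 0.45 and 0.39. With it 8 of 8 were still called higher in both.

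The interaction of the Dounce preparation with the pull-down, TRAP over Input in Dounce minus the same in Tissue, was called for 1 of 8. *Sparc* was higher by 1.31 ± 0.22 (adjusted p = 1.3e-05), where 11.8% of all genes were called higher. *Siglech* at -0.79 ± 0.24 (adjusted p = 0.0072) and *Gpr34* at -0.75 ± 0.24 (adjusted p = 0.011) did not pass 2-fold, and 3 of 8 had an unadjusted p under 0.05. With at least 10 counts asked of every library 2 of 8 were called, *Siglech* at -1.11 and *Gpr34* at -1.08, and *Sparc* at 0.99 was not. Of all genes called in this interaction 39.3% were higher with TMM scaling, 25.5% with DESeq2 size factors and 26.6% with the stricter filter.

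In order of level in the cell preparation comparison, again worked out for the 8 genes only, Tissue-Input was lowest for 7 of them. For *Tmem119* it was followed by Dounce-Input (mean 153 CPM), by the Cell (-) Inhib and Cell (+) Inhib Input groups (596 and 650 CPM) and Tissue-TRAP (667 CPM), whose neighbours overlapped, and by the 3 other TRAP groups (3023 to 3252 CPM), which overlapped. For *Gpr34*, Dounce-Input (75.5 CPM) and Tissue-TRAP (108 CPM) overlapped each other and came before the enzymatic Input groups (267 and 277 CPM), which also overlapped. For *Sparc*, Dounce-Input (751 CPM) and Tissue-Input (799 CPM) were the lowest and overlapped.

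The pattern over groups was compared between genes by Pearson's r over the 12 group means of the sort comparison, on log2(CPM + 1), and then over the 8 group means of the cell preparation comparison. All groups share the contrast of tissue with cells, so r is high throughout and is given as a description. Between pairs of the 8 genes r was 0.978 to 0.999 over 12 groups and 0.902 to 0.999 over 8, the lowest over 8 being that of *Gpr34* with *Sparc*, and *Tmem119* with *Selplg* and *Olfml3* with *Slc2a5* had 0.999 in both. The genes most like *Gpr34* were *P2ry12* (0.9993 and 0.999), *Itpripl1* (0.9991 and 0.989) and *Fli1* (0.9991 and 0.998). Those most like *Sparc* were *Snx5* (0.9959 and 0.991), *Lgmn* (0.9957 and 0.957) and *Grn* (0.9956 and 0.987).

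For the others the 3 most alike genes included *Rnase4*, *Ctsh* and *Irf5* for *Tmem119*, *Pld4* and *Gna15* for *Siglech*, *Itgb2*, *Pld4* and *Fermt3* for *Olfml3*, *Pld4* and *Ctss* for *Fcrls*, *Fcgr1*, *Itgb2* and *Tbxas1* for *Slc2a5*, and *Rnase4*, *Laptm5* and *Irf5* for *Selplg*. Their r was 0.9981 to 0.9995 over 12 groups. *Pld4* was thus among the 3 most alike for 3 of the 8 genes, and *Rnase4*, *Irf5* and *Itgb2* for 2 each. *P2ry12*, the gene most like *Gpr34*, rose by 6.13 in Cell (-) Inhib-Input and by 4.60 in Dounce-Input over Tissue-Input. *Cx3cr1*, which is not among these most alike genes, rose by 3.81 in Dounce-Input. *Csf1r*, the receptor that microglia need to survive and also not among them, was the most abundant of the 106 other markers in Cell-TRAP at 10300 CPM.

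The 8 genes lie on 6 chromosomes of the mm10 build. *Tmem119* (Entrez 231633, chr5:113793729-113800352, minus strand) and *Selplg* (Entrez 20345, chr5:113817798-113830501, minus strand) are 17445 bases apart with 1 gene, *Gm19931*, between them. *Olfml3* (Entrez 99543, chr3:103735394-103738001, minus strand) and *Fcrls* (Entrez 80891, chr3:87250965-87263524, minus strand) share chromosome 3. *Siglech* (Entrez 233274) is at chr7:55768178-55778833 on the plus strand, and *Gpr34* (Entrez 23890) at chrX:13632769-13640858 on the plus strand. *Sparc* (Entrez 20692) is at chr11:55394501-55420080 on the minus strand, and *Slc2a5* (Entrez 56485) at chr4:150119344-150144168 on the plus strand.

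Since the 8 genes move together between groups, their promoters were searched for letters that PU.1 and other ETS factors bind (GAGGAA and its longer form GAGGAAGT, which contains it) and that RUNX factors bind (TGTGGT), on both strands of a window of 250 bases at the gene start. Promoters from RefSeq (GRCm38.p6) matched 5 of the 8 genes, *Siglech*, *Olfml3*, *Sparc*, *Fcrls* and *Slc2a5*, and did not include *Tmem119*, *Gpr34* and *Selplg*. Of 32851 promoters in all, 23.3% hold GAGGAA, 2.44% GAGGAAGT and 14% TGTGGT. The *Fcrls* promoter (chr3:87263525-87263774, minus strand) holds GAGGAA once and TGTGGT on each strand, and the *Siglech* promoter (chr7:55767934-55768183, plus strand) holds TGTGGT on the opposite strand, written there as ACCACA. The *Siglech* window ends 6 bases inside the gene start given above. These are the promoters with a match, shown with the matches in capitals, and a match is a description of the letters and not a site shown to be bound. The *Olfml3*, *Sparc* and *Slc2a5* windows do not hold these letters.
Fcrls: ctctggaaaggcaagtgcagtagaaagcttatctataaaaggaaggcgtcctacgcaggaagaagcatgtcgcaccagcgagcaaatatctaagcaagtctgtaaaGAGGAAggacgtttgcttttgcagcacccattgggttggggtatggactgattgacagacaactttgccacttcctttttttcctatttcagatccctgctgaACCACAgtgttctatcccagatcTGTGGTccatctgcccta
Siglech: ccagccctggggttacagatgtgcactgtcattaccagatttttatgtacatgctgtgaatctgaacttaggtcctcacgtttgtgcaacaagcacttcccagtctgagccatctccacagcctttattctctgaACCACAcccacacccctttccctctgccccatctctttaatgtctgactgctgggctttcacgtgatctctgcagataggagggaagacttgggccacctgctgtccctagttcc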

How the data were processed

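The authors deposited expected counts per gene (Strand NGS, mm10, strand-specific libraries, duplicate reads removed) in 2 tables of 48 and 32 libraries, and an earlier table of 24 of these libraries was not used here. The deposited expected counts were rounded, and genes with more than 5 counts in every library of at least 1 group were kept. Each table had its own fit over all genes in R 4.3.3 with edgeR 4.0.16 (TMM, quasi-likelihood test, called at a Benjamini-Hochberg adjusted p below 0.1 with more than a 2-fold difference). Scaling relative to the markers used the median of ratios over 106 microglial markers that hold no member. Groups and mouse numbers came from the labels. Pairs of libraries from the same mouse were checked by the correlation of their departures from the group means (median 0.01 to 0.371, beside -0.162 to 0.00893 for different mice). Departures within a group cancel out, which partly draws down the values for different mice. The check did not separate mice everywhere, as for Cell-Input with Tissue-Input (0.01 beside 0.00893). The lowest value for the same mouse in autoMACS, TRAP with Input, was -0.144.

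Comparisons were of preparations within a fraction, of TRAP with Input, and of their interaction. Alternatives were DESeq2 1.42.0 (size factors, Wald test), no filter or at least 10 counts in every library, libraries of the same fraction, the mouse as a block, other marker scalings, leaving out each library, and limma 3.58.1 (voom). Libraries held 2471428 to 20168163 counts. Named genes were the 8 members, of 24 other homeostatic genes the 3 with the largest and the 3 with the smallest change, and up to 3 of the most alike genes of each member, of which some are not reported here. *Cx3cr1*, *P2ry12* and *Csf1r* were named also as genes of general interest in microglia. Members and lists were chosen with earlier results of these data known.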

Additional observations from a re-analysis of the deposited data

Results flagged for a closer look

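Each gene's libraries were searched, group by group, for 1 library far from the rest, by the gap to its nearest neighbour as a share of the group's range on the log2 scale. Of 144 gene and group pairs with 4 or 5 libraries 16 passed Dixon's 95% limit, where chance gives about 1 in 20, or 7.2. The 8 genes of a library do not vary independently, and 6 of the 16 come from mouse 72 in autoMACS-Input and 5 from mouse 1362 in Cell (+) Inhib, so the 2 counts are not a test.

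In autoMACS-Input mouse 72 was low for 6 genes, with a gap of 0.843 of the range for *Tmem119*, 0.861 for *Siglech*, 0.908 for *Olfml3*, 0.972 for *Sparc*, 0.881 for *Fcrls* and 0.868 for *Selplg*. That library held 7129451 counts, its 106 other microglial markers summed to 75500 CPM, the lowest of its group, and its 19 early response genes to 37400 CPM, the highest of its group. The part of depth or of early response in these levels was not tested.

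In Cell-TRAP mouse 946 was low for *Tmem119*, with a gap of 0.968 (3130 CPM beside 3770, 3800 and 3780 CPM), and for *Selplg*, with 0.902 (3350 CPM beside 4020, 4000 and 3950 CPM). In FACSAria-Input mouse 991 was low for *Gpr34*, with 0.882 (1360 CPM beside 1540 to 1570 CPM).

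In the cell preparation comparison mouse 1362 stood apart in Cell (+) Inhib. It was high in Input for *Fcrls*, with a gap of 0.938 (913 CPM beside 455 to 475 CPM), for *Slc2a5*, with 0.941, and for *Selplg*, with 0.854. In TRAP it was high for *Fcrls*, with 0.875, and low for *Tmem119*, with 0.914 (2740 CPM beside 3390 to 3460 CPM). In Dounce-TRAP mouse 181 was low for *Siglech*, with 0.834, and in Tissue-Input mouse 946 was low for *Fcrls*, with 0.854.

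The effect of the pull-down differed between preparations by an edgeR interaction test. From Tissue to Cell it was lower for *Tmem119* by -1.74, *Siglech* by -1.81, *Olfml3* by -1.65, *Gpr34* by -1.68, *Fcrls* by -1.86, *Slc2a5* by -1.50 and *Selplg* by -1.99 on the log2 scale. From Tissue to Dounce it differed by -0.787 for *Siglech*, -0.753 for *Gpr34* and 1.31 for *Sparc*, of which *Sparc* alone passed 2-fold.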

How the results depend on the processing

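Over all alternatives, 14336 of 14352 fold changes of the 8 genes kept their direction or stayed uncalled, and their side of the threshold. Of the others 3 fell short of it and 13 newly passed it, and 0 called values changed sign. Fold changes that were not called had another sign in 151 cases.

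Outside the scaling by the markers, DESeq2 size factors and no filter changed no call of the 8 genes. Nor did the same fraction alone or the mouse as a block (each 14 of 27 comparisons), or DESeq2's Wald test (25 of 27). These were not run relative to the markers, and the block was not used for the interactions. With at least 10 counts in every library 2 of 8 were called in the interaction of Dounce with the pull-down, in place of 1, which no longer included *Sparc* (0.989), and *Sparc* at 0.977 was no longer called in Cell-TRAP against Tissue-TRAP. Fewer genes were tested. With a longer list of markers *Sparc* was also called relative to the markers in Cell (-) Inhib-TRAP against Tissue-TRAP, 2 of 8 in place of 1. With libraries scaled by the markers' summed counts 1 of 8 was called relative to them in Cell-TRAP against Tissue-TRAP, in place of 2. The causes were not tested.

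The sorts share mice only in part, so limma voom with the mouse as a random effect was added after seeing the data, on the libraries of each fraction. It changed no call of the 8 genes between the sorts or against Cell. Across the sorts in Input it called 738 genes of all, and 715 without the mouse, where edgeR called 1669. Relative to the markers these counts were 449 and 421, where edgeR called 1683. In TRAP they were 526 and 500, where edgeR called 522, and relative to the markers 489 and 446, where edgeR called 396.

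Without 1 library at a time, 8576 fold changes under TMM kept their calls. Relative to the markers 4342 of 4352 did, and the 10 others were all *Sparc* in Cell (-) Inhib-TRAP, where the count of called genes ranged from 1 to 2.

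The median of all genes moved by up to -0.486 on the log2 scale (DESeq2 size factors, sorts against Cell-Input) and by up to 0.448 (the mouse as a block, Cell (-) Inhib). Depth was lowest in Dounce-TRAP, and *Gpr34* in Tissue-Input rested on 23 to 134 counts a library. Dounce and Tissue came from different mice, as did the enzymatic suspensions and Tissue of the cell preparation comparison. Dounce and the enzymatic suspensions also came from different mice. The paper used a Percoll gradient for Dounce only, and a whole brain for Dounce-Input. The paper reports the lowest RNA integrity in Dounce-Input. It also reports coverage leaning more to the end of genes in Tissue and Dounce than in the enzymatic suspensions of that comparison. Coverage along genes was not analysed here, and no library came from mice without Cre.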
